A study of Mus musculus with 24 samples.

Results

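The proteasome is the protease that degrades ubiquitin-tagged proteins, and its subunit genes were followed here in mouse liver across 6 genotypes that combine the loss of autophagy, mTORC1 restraint, p62 and Nrf2. The set held every protein-coding gene whose symbol begins with Psma, Psmb, Psmc, Psmd, Psme, Psmf or Psmg and a number. The 3 immunoproteasome genes Psmb8, Psmb9 and Psmb10 and 4 pseudogenes were left out. This gave 47 of the 33019 gene rows of the count table, of which 46 passed the filter on low counts and were tested. By role they were 8 genes of the alpha ring, 8 of the beta ring, 6 ATPases of the cap, 3 further genes of the cap base, 8 of the cap lid, 5 activators, 1 inhibitor and 7 assembly chaperones. The last, Psmc3ip, matches by name only and is known as a meiotic recombination gene.

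Polyadenylated liver RNA of C57BL/6J mice aged 2 months was counted in 24 libraries, 4 for each genotype. The DKO group is labelled with a hepatic deletion of both Atg5, an autophagy gene needed to form autophagosomes, and Tsc1, which restrains the kinase complex mTORC1. The p62 TKO and Nrf2 TKO groups carry those deletions and lack, in addition, hepatic p62 (Sqstm1, an adaptor that carries ubiquitinated cargo to autophagosomes) or hepatic Nrf2 (Nfe2l2, a transcription factor of the antioxidant response). The Atg5 KO and TSC1 KO groups lack 1 hepatic gene each, and wild-type livers (WT) are the common baseline. The labels do not name the promoter that drives the deletion, the sex, or whether each library is a separate animal. The p-values therefore measure the spread between these libraries, which may be technical. In whole-liver RNA, fewer cells of a type and less RNA per cell cannot be told apart.

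Total counts ran from 10494080 to 13057467 per library. Levels are CPM (read counts relative to library size) on library sizes scaled by TMM, which sets the typical gene at no change. A gene was called at an adjusted p under 0.05 by edgeR (quasi-likelihood test, Benjamini-Hochberg over all 15851 genes that were tested). Changes are log2 fold changes ± SE. Of the targeted genes, Nfe2l2 had 11.8, 17.7, 8.72 and 8.69 CPM in Nrf2 TKO livers, against 99.9, 97.3, 92.8 and 162 CPM in DKO livers. Sqstm1 had 249, 439, 363 and 774 CPM in p62 TKO livers, against 1000, 1050, 1060 and 729 CPM in DKO livers, so that p62 TKO replicate 4 lay inside the DKO range. Atg5 was 0.68 ± 0.12 higher in Atg5 KO than in WT livers, and Tsc1 differed by -0.18 ± 0.19 in TSC1 KO livers. These counts span whole genes and the labels do not say which exons were deleted, so they do not check the Atg5 and Tsc1 labels.

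The marker genes of liver cell types differed widely. The 10 hepatocyte markers summed to 13900 to 19500 CPM in DKO, 39500 to 52000 in p62 TKO, 74600 to 103000 in Nrf2 TKO, 50400 to 122000 in the Atg5 KO group, 89400 to 104000 in the TSC1 KO group and 90800 to 112000 CPM in WT livers. The 8 bile duct markers summed to 6770 to 10000 CPM in DKO and 76.5 to 117 CPM in WT livers. Most of that sum was Spp1, which averaged 7400 CPM in DKO and 68.6 CPM in WT livers. Krt7, Krt19 and Epcam averaged 141, 54.5 and 92.1 CPM in DKO, against 1.29, 1.67 and 1.5 CPM in WT livers. The 8 macrophage markers summed to 403 to 668 CPM in DKO and 174 to 291 CPM in WT livers, and the 8 lymphocyte markers to 26.2 to 50.6 CPM in DKO and 6.82 to 16 CPM in WT livers. The 6 stellate cell markers summed to 536 to 735 CPM in DKO and 146 to 234 CPM in WT livers, and the 9 cell cycle genes to 83.6 to 174 CPM in DKO and 44.2 to 52.5 CPM in WT livers. The 5 endothelial markers overlapped, with 73.6 to 87 CPM in DKO and 64.3 to 143 CPM in WT livers. None of these markers was at 0 in a whole group, and their part in the results below was not tested.

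In the proteasome, alpha and beta rings stack into the core particle, whose beta subunits Psmb5, Psmb6 and Psmb7 do the cutting. A cap on its end, made of a lid and a base, recognises ubiquitin chains and unfolds the protein with a ring of ATPases. The transcription factor Nfe2l1, which is freed from the endoplasmic reticulum by Vcp, Ngly1 and Ddi2, raises proteasome genes together when proteasome activity is low, and Nrf2 is known to raise some of them under oxidative stress. Both bind antioxidant response elements.

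The promoters of 3 members are shown because the results turn on these genes. On TMM-scaled sizes Psmd8 and Psmd10 were called higher in DKO than in WT livers, while most members were called lower. Psmb5 was among the members with the largest fall on that scale (-1.08). With library sizes from total counts alone it was not called (-0.09). Its promoter holds a match to the core letters of an antioxidant response element. Each line gives the 150 bases before the RefSeq start on GRCm38.p6, 5′ to 3′ on the gene's own strand. Capitals mark matches to TGANNNNGC or CCAAT on either strand.
Psmd8, chr7:29180674-29180823, minus strand: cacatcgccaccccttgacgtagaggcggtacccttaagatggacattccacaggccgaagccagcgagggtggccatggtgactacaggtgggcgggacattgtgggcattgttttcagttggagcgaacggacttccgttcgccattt
Psmd10, chrX:140956712-140956861, minus strand: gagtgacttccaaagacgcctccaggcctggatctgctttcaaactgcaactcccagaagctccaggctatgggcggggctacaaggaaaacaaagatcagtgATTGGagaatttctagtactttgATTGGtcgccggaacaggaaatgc
Psmb5, chr14:54617996-54618145, minus strand: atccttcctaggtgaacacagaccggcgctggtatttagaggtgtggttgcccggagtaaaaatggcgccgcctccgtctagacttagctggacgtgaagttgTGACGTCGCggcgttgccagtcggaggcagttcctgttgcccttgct

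The Psmb5 match, TGACGTCGC, began at position -47 from the start and also fits the stricter letters TGACNNNGC. The Psmd8 line holds no match to either motif, but a TGANNNNGC match begins at position 26 after the Psmd8 start, on the other strand and outside the bases printed. Of the motifs searched, the Psmd10 line holds only CCAAT, read on the other strand as ATTGG. RefSeq promoters of 300 bases (250 before and 50 after the start) were at hand for 39 of the 47 members. TGACNNNGC stood in 6 of these 39 (15.4%) and in 12.5% of all 27025 promoters of that length. The looser TGANNNNGC, which includes the stricter form, stood in 21 members (53.8%) and in 41.4% of all promoters, and CCAAT in 14 members (35.9%) and in 37.9%. These are matches of letters, not binding sites.

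Counted per kb of exon in WT livers, the beta subunit Psmb4 stood highest at 110 ± 9.65 CPM per kb and the alpha subunit Psma6 next at 107 ± 4.19 (SD, n = 4 each), closer to each other than their spread. Psmb5 followed at 96 ± 8.26 CPM per kb, and the ATPase Psmc1 at 91.6 ± 0.542 CPM per kb. Psmd8 ranked 14 of 47 in WT livers at 51.1 ± 4.32 CPM per kb. In DKO livers Psmd8 ranked first at 95.1 ± 2.49 CPM per kb, above Psmb4 at 64.4 ± 12 and Psma6 at 63.4 ± 6.41 CPM per kb. At the low end of the tested genes were Psma8, the testis-type alpha subunit, with 0.185 ± 0.164 CPM per kb in DKO and 0.304 ± 0.167 in WT livers, and Psmc3ip, with 0.837 ± 0.313 in DKO and 0.301 ± 0.164 in WT livers. Psmb11, the thymus-specific beta subunit, had 0 counts in all 4 WT libraries and was not tested. The other cap, ring and activator genes lay between 19 and 91 CPM per kb in WT livers. Among the regulators of assembly and activity, Psmg1 had 20.8, Psmg4 15.6, Psmd10 12.4, Psmg2 10.7, Psmd5 6.83, Psmd9 6.54, Psmf1 5.28 and Psmg3 3.5 CPM per kb in WT livers.

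Together the 47 genes took 0.508%, 0.513%, 0.481% and 0.451% of all counts in DKO livers, against 0.357%, 0.369%, 0.411% and 0.359% in WT livers. Every DKO library lay above every WT library. The 95% Wilson binomial intervals, which cover counting error only, spanned at most 0.447% to 0.518% in DKO and 0.353% to 0.415% in WT livers. The ranges were 0.43% to 0.473% in p62 TKO, 0.357% to 0.398% in Nrf2 TKO, 0.356% to 0.466% in the Atg5 KO and 0.398% to 0.458% in the TSC1 KO livers. On TMM-scaled sizes the order was the other way round. The summed level was 3414, 3452, 3092 and 2939 CPM in DKO livers, against 4726, 4807, 5061 and 5020 CPM in WT livers, again without overlap. The TMM factors, by which library sizes are multiplied, were 1.49 to 1.56 in DKO and 0.717 to 0.813 in WT livers. With library sizes from total counts alone, the median of all 15851 genes moved to 1.07 on the log2 scale in DKO versus WT. The direction of a family-wide change thus depended on the scaling.

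**Figure D1:**
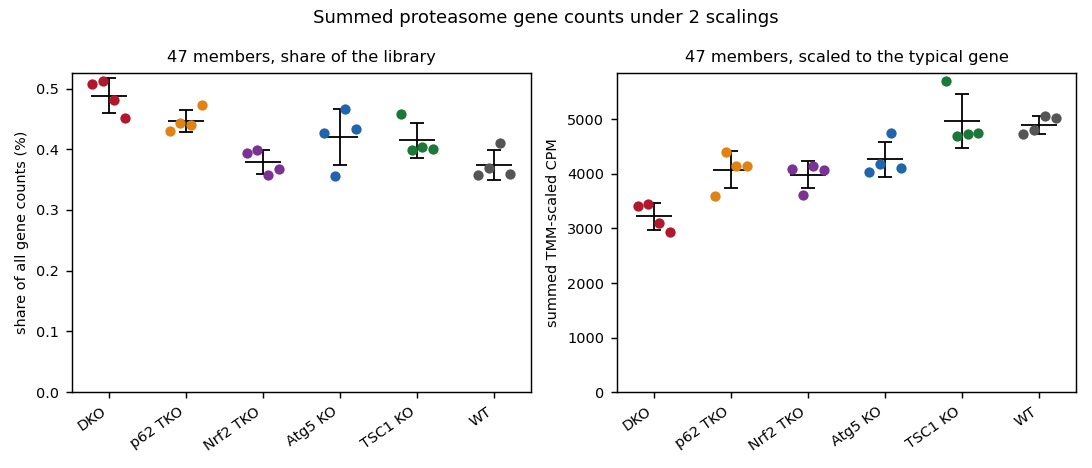
Summed counts of the 47 genes in each library (points) with the mean and SD of 4 libraries, as a share of all counts (left, %) and as TMM-scaled CPM (right). DKO livers stand highest on the left (0.451% to 0.513%) and lowest on the right (2939 to 3452 CPM).

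In DKO versus WT livers, 36 members were called lower and 3 higher on TMM-scaled sizes, where 32.3% and 37.1% of all genes tested were called lower and higher. The member median was -0.67, with the middle of the family between quartiles of -0.82 and -0.42, while all genes had a median of 0.08 and quartiles of -0.68 and 1.17. On total counts alone, 26 members were called higher and 1 lower, against 70.4% and 11.1% of all genes, and the member median was 0.32. Under both scalings the member median lay 0.75 below the median gene (-0.75). On either scale the median proteasome gene thus changed less upward, or further downward, than the median of all genes.

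Of the 15 core particle genes tested, 14 were called lower and 0 higher by edgeR on TMM-scaled sizes, against 32.3% and 37.1% of all genes. On total counts 5 were called higher and 1 lower, against 70.4% and 11.1% of all genes. The exception on the TMM scale was Psma8 (-0.73 ± 0.68, edgeR adjusted p = 0.34). The catalytic subunit Psmb7 had 33.7, 32.7, 30.6 and 30.1 CPM in DKO livers, against 77.9, 86.6, 88.7 and 81.6 CPM in WT livers. The groups lay far apart and the change was -1.40 ± 0.11 (edgeR adjusted p = 2.3e-10). It was also called lower on total counts (-0.41, adjusted p = 0.00043), the single member for which that held. Psmb7 shares 11.8% of its exon bases with Nek6 on the opposite strand, and whether reads were counted by strand is not stated in the labels. Psmb5, the chymotrypsin-like subunit, had 35, 55.7, 40.8 and 31.4 CPM in DKO livers, against 81.6, 78.8, 89.9 and 94.9 CPM in WT livers. It differed by -1.08 ± 0.17 (edgeR adjusted p = 4.6e-06) and by -0.09 on total counts, which was not called. Psmb5 shares 12.1% of its exon bases with the microRNA gene Mir686 on its own strand. The alpha subunit Psma1 changed by -0.79 ± 0.10 (edgeR adjusted p = 3.7e-07) and by 0.20 on total counts, which was not called. The remaining alpha genes Psma2 to Psma7 lay between -1.08 (Psma3) and -0.40 (Psma2) on the TMM scale, and the remaining beta genes between -0.85 (Psmb1) and -0.55 (Psmb2).

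Of the 17 cap genes, 16 were called lower and 1 higher on TMM-scaled sizes, against 32.3% and 37.1% of all genes. On total counts 9 were called higher and 0 lower by edgeR, against 70.4% and 11.1% of all genes. The ATPase Psmc2 had 68.8, 78.7, 69.5 and 62.5 CPM in DKO livers, against 132, 140, 147 and 141 CPM in WT livers. It changed by -1.0 ± 0.10 (edgeR adjusted p = 7.6e-09) and by -0.01 on total counts. The other ATPases lay between -0.77 (Psmc1) and -0.56 (Psmc3). In the base, Psmd1, its largest scaffold, changed by -0.84 ± 0.10 (edgeR adjusted p = 2.1e-07; 0.15 on total counts), close to Psmd2 at -0.83 and the ubiquitin receptor Psmd4 at -0.78. In the lid, Psmd12 had 56.9, 56.8, 51 and 54.9 CPM in DKO livers, against 99.9, 105, 121 and 111 CPM in WT livers. This was a change of -0.99 ± 0.08 (edgeR adjusted p = 5.0e-10), and Psmd6 changed by -1.07 ± 0.10 (adjusted p = 3.0e-09). Neither was called on total counts. Psmd11, Psmd3, Psmd7, Psmd13 and the deubiquitinase Psmd14 lay between -0.84 and -0.44.

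The lid subunit Psmd8 was the exception. It had 292, 289, 282 and 300 CPM in DKO livers, against 146, 149, 154 and 176 CPM in WT livers. All DKO libraries stood above all WT libraries, and the change was 0.90 ± 0.15 (edgeR adjusted p = 1.2e-05) on the TMM scale and 1.89 (adjusted p = 2.0e-10) on total counts. Psmd8 made up 17.1%, 17.2%, 18% and 20.1% of the counts of the 17 cap genes in DKO livers, against 6.36%, 6.32%, 6.2% and 7.44% in WT livers. That share does not depend on the scaling of the library. Without Psmd8 the other 46 genes still took 0.405% to 0.47% of all counts in DKO livers and 0.346% to 0.399% in WT livers. GENCODE M21 places Psmd8 at chr7:29174188-29180701 on the minus strand, with no exon shared with another gene. The neighbouring genes Ggn and Catsperg1, chosen after their values were seen, averaged 0.195 ± 0.138 and 0.605 ± 0.221 CPM in DKO livers, far below Psmd8. Catsperg1 differed by 1.38 ± 0.66 in DKO versus WT livers (edgeR adjusted p = 0.067; 2.34 and called on total counts) and was called higher against TSC1 KO livers (2.49 ± 0.74), with at most 15 counts in a DKO library.

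Among the assembly chaperones, Psmd10 (gankyrin), which binds the ATPase ring while the cap is built, also stood higher in DKO livers. It had 29.6, 25.9, 30.2 and 25.1 CPM in DKO livers, against 19.6, 19.5, 15.3 and 18.3 CPM in WT livers, without overlap. The change was 0.61 ± 0.12 (edgeR adjusted p = 1.5e-04) on the TMM scale and 1.60 (adjusted p = 1.6e-09) on total counts. Psmd10 lies at chrX:140948429-140956728 on the minus strand. Its neighbour Atg4a, which starts close by on the other strand and was chosen after its values were seen, differed by 0.06 ± 0.13 on the TMM scale (edgeR adjusted p = 0.68) and by 1.06 on total counts, where it was called higher and lay near the all-gene median of 1.07. The alpha-ring chaperone Psmg1 changed by -1.06 ± 0.15 (edgeR adjusted p = 8.6e-07; -0.07 on total counts). Psmd5 (-0.38) and Psmg2 (-0.41) were called lower on the TMM scale, and Psmd9 (-0.20), Psmg3 (-0.43) and Psmg4 (0.26) were not called. On total counts Psmd5 (0.61), Psmg2 (0.59), Psmd9 (0.80), Psmg3 (0.56) and Psmg4 (1.26) were all called higher.

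Of the 5 activators, which open the core particle without ubiquitin, 3 were called lower on the TMM scale, against 32.3% of all genes. Psme4 (PA200) changed by -0.69 ± 0.16 (edgeR adjusted p = 5.7e-04; 0.30 on total counts). Psme2 (-0.48) was called lower, as was Psme2b (-0.42), which is a near copy of Psme2 and may share its reads. Psme3 (-0.23) was not called. On total counts Psme2 (0.52), Psme2b (0.58) and Psme3 (0.76) were called higher. Psme1, the partner of Psme2 in the interferon-inducible PA28 ring, had 104, 118, 107 and 86.5 CPM in DKO livers, against 106, 96.8, 97.4 and 111 CPM in WT livers. These overlapped, with a difference of 0.02 ± 0.16 (edgeR adjusted p = 0.94), and on total counts Psme1 was called higher at 1.01. The inhibitor Psmf1 (PI31) likewise differed by 0.01 ± 0.13 (edgeR adjusted p = 0.97) on the TMM scale and by 1.0, called higher, on total counts. Psmc3ip had 1.43, 1.06, 2.34 and 1.25 CPM in DKO livers, against 0.34, 0.347, 0.529 and 0.974 CPM in WT livers. It was called higher (1.47 ± 0.47, edgeR adjusted p = 0.0081), at levels near the filter and with 21.2% of its exon bases shared with Mlx on the opposite strand.

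**Figure D2:**
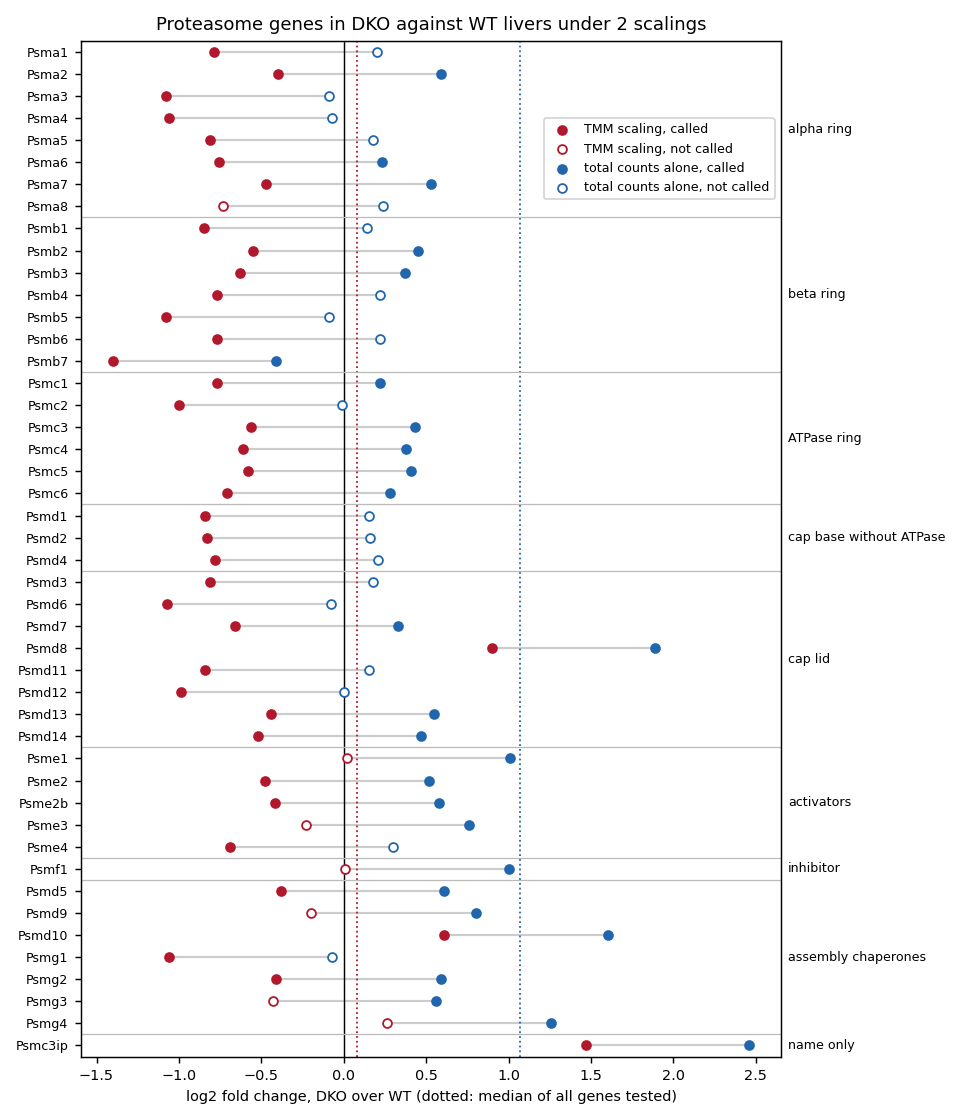
Log2 fold change of each of the 46 tested genes in DKO over WT livers with TMM scaling (red) and with total counts alone (blue), grouped by role (filled points: called; dotted lines: median of all genes tested). The blue points repeat the red ones shifted to the right, and Psmd8 and Psmd10 lie right of both their ring and lid neighbours on either scale, while Psmb7 lies furthest left.

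Immunoproteasome genes, left out of the set, are subunits that replace the catalytic ones after interferon. By edgeR on TMM-scaled sizes 0 of the 3 were called in DKO versus WT livers (Psmb8 0.33, Psmb9 -0.07, Psmb10 -0.21), and on total counts all 3 were called higher (0.80 to 1.33). Per length, they made up 25.2% to 30.8% of the summed catalytic transcripts (Psmb5, Psmb6 and Psmb7 with these 3) in DKO livers and 13.1% to 19.7% in WT livers. The DKO and WT ranges did not overlap. The share was 24.9% to 31.9% in p62 TKO, 21.2% to 27.8% in Nrf2 TKO, 19.9% to 31.6% in the Atg5 KO and 18.1% to 22.9% in the TSC1 KO livers. Of these only the TSC1 KO range overlapped that of WT, so a higher share was not particular to DKO livers. In DKO versus WT livers, 5 of 12 interferon-responsive genes were called higher and 1 lower on TMM-scaled sizes. That share of higher calls was near the 37.1% of all genes. On total counts 11 were called higher, against 70.4% of all genes. The macrophage and lymphocyte marker sums given above stood higher in DKO livers. The part of these cells in the share was not tested.

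The regulators of proteasome transcription moved apart from one another. Nfe2l1 had 160, 154, 165 and 167 CPM in DKO livers, against 172, 155, 148 and 145 CPM in WT livers, a difference of 0.06 ± 0.09 (edgeR adjusted p = 0.57). On total counts it was called higher at 1.05, near the all-gene median of 1.07. Ddi2, the protease that cuts Nfe2l1, differed by -1.56 ± 0.18 (edgeR adjusted p = 8.0e-08) and was called lower on total counts too (-0.57). Ngly1, the glycanase that converts it, differed by -1.14 ± 0.13 (edgeR adjusted p = 5.6e-08) and by -0.16 on total counts, which was not called. Nfe2l3, a related factor, had 10.9, 7.07, 11.6 and 14.4 CPM in DKO livers, against 0.681, 0.347, 1.8 and 0.853 CPM in WT livers (3.55 ± 0.45, edgeR adjusted p = 3.1e-07; 4.53 and called on total counts). Vcp differed by -0.45 ± 0.26, which was not called, and by 0.55 on total counts, which was called higher. Nfe2l2 (0.76) and Sqstm1 (0.73) were called higher and Keap1 (-0.52) and Mafg (-0.66) lower, and on total counts all 4 were called higher.

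Of 15 proteasome partners (further cap and assembly proteins, shuttle receptors and associated proteins), 10 were called lower and 2 higher on TMM-scaled sizes, against 32.3% and 37.1% of all genes. On total counts the direction turned, with 2 called lower and 10 higher, against 11.1% and 70.4% of all genes. The shuttle receptors Rad23b (-1.47 ± 0.13, edgeR adjusted p = 8.1e-10) and Ubqln1 (-1.43 ± 0.20, adjusted p = 8.7e-07) were lowest, and both were also called lower on total counts (-0.47 and -0.45). The 2 called higher on the TMM scale, and on total counts as well (2.20 and 2.28), were the shuttle receptor Ubqln2 and Zfand2a (AIRAP), a stress-induced proteasome-binding protein. Ubqln2 had 58, 85, 59.4 and 68.5 CPM in DKO livers, against 27.8, 26.9, 36.5 and 25.3 CPM in WT livers (1.22 ± 0.17, edgeR adjusted p = 9.3e-07). Zfand2a had 43.8, 33.5, 35.3 and 44.5 CPM in DKO livers, against 15.3, 17.9, 17.7 and 13.4 CPM in WT livers (1.29 ± 0.16, edgeR adjusted p = 2.7e-07). For both genes every DKO library stood above every WT library. Of 6 ubiquitin and ubiquitin-activating genes 3 were called lower and 1 higher on TMM-scaled sizes, and 4 were called higher on total counts.

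In the single knockouts fewer members were called. In Atg5 KO versus WT livers, 16 members were called lower and 3 higher on TMM-scaled sizes, where 11.3% and 18.6% of all genes were called lower and higher, and the member median was -0.23. On total counts 13 were called higher and 0 lower by edgeR (1 lower at an unadjusted p under 0.05), against 36.1% and 2.2% of all genes, and the all-gene median moved to 0.37. The lower calls were fewest, at 7, without Atg5 KO replicate 4, and were 8 or 9 without WT replicate 3, WT replicate 4 or Atg5 KO replicate 1. The lid subunit Psmd6 changed by -0.58 ± 0.10 (edgeR adjusted p = 1.7e-04), the ATPase Psmc1 by -0.39 ± 0.09 (adjusted p = 0.0036), Psmb7 by -0.42 ± 0.11 (adjusted p = 0.0057) and Psmd2 by -0.47 ± 0.13 (adjusted p = 0.0063). None of these 4 was called on total counts.

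The 3 members called higher in Atg5 KO livers were an activator, the inhibitor and a chaperone. Psme1 had 161, 112, 210 and 172 CPM in Atg5 KO livers, against 106, 96.8, 97.4 and 111 CPM in WT livers (0.67 ± 0.16, edgeR adjusted p = 0.0033). Replicate 2 stood just above the WT range and the other 3 well above it. Psmf1 changed by 0.48 ± 0.13 (edgeR adjusted p = 0.0097) and Psmd5, a chaperone of the ATPase ring, by 0.35 ± 0.12 (adjusted p = 0.035). The Psmf1 call was lost without Atg5 KO replicate 4 (adjusted p = 0.055), and the Psmd5 call was lost (0.24 to 0.37) without any of 11 libraries, namely WT replicates 1, 2 and 4, Atg5 KO replicates 1, 3 and 4, TSC1 KO replicates 1 to 4 and p62 TKO replicate 2. On total counts all 3 were called higher. Beside them, 8 of 12 interferon-responsive genes were called higher on TMM-scaled sizes, against 18.6% of all genes. Their summed levels were 561 to 1840 CPM in Atg5 KO and 210 to 282 CPM in WT livers. The largest part of the Atg5 KO sum was Rsad2, which averaged 677 CPM in Atg5 KO and 9.53 CPM in WT livers. The 8 macrophage markers summed to 330 to 754 CPM in Atg5 KO and 174 to 291 CPM in WT livers. Psmb8 (0.73 ± 0.22, edgeR adjusted p = 0.014) and Psmb9 (0.85 ± 0.26, adjusted p = 0.017) were called higher as well, and both calls were lost without WT replicate 3 or Atg5 KO replicate 3 or 4 (0.60 to 0.63 and 0.69 to 0.75). The part of immune cells in these values was not tested. Psmd8 differed by 0.34 ± 0.15 (edgeR adjusted p = 0.081) and was called without Atg5 KO replicate 2 (0.44).

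In TSC1 KO versus WT livers, 2 members were called higher and 0 lower by edgeR under both scalings, where 8.79% and 7.6% of all genes were called higher and lower on TMM-scaled sizes and 11.7% and 3.96% on total counts. The member median was 0.04. At an unadjusted p under 0.05 the counts were 2 and 0 on TMM-scaled sizes and 9 and 0 on total counts, and DESeq2 gave 2 and 0. Both calls were assembly chaperones. Psmd9, which guides a pair of ATPases into the ring, had 96.2, 87.3, 81.3 and 69.9 CPM in TSC1 KO livers, against 40.5, 43.9, 47.2 and 58.1 CPM in WT livers, without overlap (0.82 ± 0.15, edgeR adjusted p = 7.3e-04). It shares 25.5% of its exon bases with a lincRNA on the opposite strand. Psmg3, an alpha-ring chaperone, had 20.9, 14.8, 16.7 and 15.8 CPM in TSC1 KO livers, against 9.53, 11, 10.6 and 9.38 CPM in WT livers (0.75 ± 0.20, edgeR adjusted p = 0.014). Without TSC1 KO replicate 1 the Psmg3 call was lost (0.63, adjusted p = 0.057). That library stood apart, with a summed level of 5710 CPM beside 4704 to 4759 CPM in the other 3.

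Whether the losses of Atg5 and Tsc1 add up was tested by the interaction of DKO, Atg5 KO, TSC1 KO and WT livers. On TMM-scaled sizes 27 members had a negative interaction and 1 a positive one, where 19.3% and 15.5% of all genes had one, and the member median was -0.50. On that scale the DKO levels of these 27 genes were below the sum of the single effects. On total counts 3 were called each way, against 10.6% negative and 35.5% positive calls of all genes, with an all-gene median of 0.52 and a member median of 0.00. The values were -0.88 ± 0.14 for Psma1 (edgeR adjusted p = 5.0e-05), -0.96 ± 0.18 for Psmd11 (adjusted p = 2.8e-04) and -1.14 ± 0.23 for Psmb5 (adjusted p = 5.9e-04), and all 3 were also called negative on total counts. Psmb7 (-0.78 ± 0.16), Psmg1 (-0.98 ± 0.20) and Psmf1 (-0.71 ± 0.19) were called on the TMM scale alone. Psmd10 was the positive one (0.54 ± 0.18, edgeR adjusted p = 0.02). The call was lost without any of 7 libraries (0.40 to 0.47), namely WT replicates 1, 2 and 4, Atg5 KO replicate 2, TSC1 KO replicate 4 and DKO replicates 1 and 3. For Psmd8 the interaction was 0.45 ± 0.21 (edgeR adjusted p = 0.099), and it was called on total counts (0.93, adjusted p = 0.0012).

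Against the single knockouts, which share the DKO libraries with the comparisons above, DKO livers had 35 members called lower and 2 higher than Atg5 KO (27.3% and 29.2% of all genes) on TMM-scaled sizes. They had 38 lower and 2 higher than TSC1 KO livers (30.0% and 36.6% of all genes). On total counts 2 members were lower and 15 higher than in Atg5 KO, against 12.3% and 57.8% of all genes, and 4 lower and 19 higher than in TSC1 KO livers, against 11.9% and 68.0%. Psmb7 was lower on both scales, by -0.97 ± 0.11 against Atg5 KO (edgeR adjusted p = 1.3e-07) and by -1.20 ± 0.11 against TSC1 KO livers (adjusted p = 3.3e-09). The 2 higher members were again Psmd8 and Psmd10. Psmd8 was higher by 0.55 ± 0.15 against Atg5 KO (edgeR adjusted p = 0.0027) and by 0.79 ± 0.15 against TSC1 KO livers (adjusted p = 5.8e-05). Psmd10 was higher by 0.36 ± 0.12 (edgeR adjusted p = 0.014) and by 0.78 ± 0.12 (adjusted p = 7.7e-06). The first of these calls was lost without Atg5 KO replicate 2 (0.22) or DKO replicate 3 (0.31).

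The triple knockouts ask which of the DKO changes depend on p62 or Nrf2. In p62 TKO versus DKO livers, 31 members were called higher and 0 lower by edgeR on TMM-scaled sizes, where 22.3% and 21.5% of all genes were called, with a member median of 0.37. At an unadjusted p under 0.05 the lower count was 1, and DESeq2 gave 0. Without p62 TKO replicate 4, the library with Sqstm1 inside the DKO range, 26 were called higher. On total counts 1 was called higher and 8 lower, against 10.2% and 47.6% of all genes, whose median moved to -0.48. Psmb5 was the single higher one on both scales. It had 58.9, 84.7, 73.7 and 95.8 CPM in p62 TKO livers, against 35, 55.7, 40.8 and 31.4 CPM in DKO livers, without overlap (0.94 ± 0.17, edgeR adjusted p = 8.6e-05; 0.48 and adjusted p = 0.02 on total counts). Psmb7 differed by 0.66 ± 0.11 (edgeR adjusted p = 4.7e-05), Psmd6 by 0.56 ± 0.10 (adjusted p = 1.0e-04), Psmc2 by 0.52 ± 0.10 (adjusted p = 2.1e-04), Psma1 by 0.52 ± 0.10 (adjusted p = 2.6e-04), Psmg1 by 0.68 ± 0.14 (adjusted p = 5.8e-04) and Psme2 by 0.74 ± 0.18 (adjusted p = 0.0016), and on total counts none of these 6 was called. The 3 immunoproteasome genes were called higher too on TMM-scaled sizes, by 0.66 to 1.08. On total counts the means lay closer, at 82.4 CPM in p62 TKO and 68.1 CPM in DKO livers for Psmb8. They were 42.4 and 27.6 CPM for Psmb9 and 73.4 and 64.1 CPM for Psmb10.

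In Nrf2 TKO versus DKO livers, 30 members were called higher and 2 lower on TMM-scaled sizes, where 26.7% and 29.2% of all genes were called, with a member median of 0.41. On total counts 0 were called higher (0 at an unadjusted p under 0.05) and 23 lower by edgeR, against 11.5% and 59.8% of all genes, whose median moved to -0.71. Under both scalings the member median lay 0.45 above the median gene. Psmd12 differed by 0.65 ± 0.08 (edgeR adjusted p = 7.4e-07; -0.02 on total counts), Psmb7 by 0.79 ± 0.11 (adjusted p = 2.6e-06; 0.11), Psma1 by 0.69 ± 0.10 (adjusted p = 5.2e-06; 0.01), Psmc2 by 0.67 ± 0.10 (adjusted p = 6.3e-06; -0.01) and Psmd4 by 0.65 ± 0.11 (adjusted p = 4.4e-05; -0.02). Psmb5, whose promoter holds the TGACGTCGC match, differed by 0.63 ± 0.17 (edgeR adjusted p = 0.0025; -0.04 on total counts). TGACNNNGC also stood in the promoters of Psmd12, Psmb6 (0.54), Psmc6 (0.46) and Psmd9 (0.59), all called higher on TMM-scaled sizes. So were most members, 30 of the 46 tested. On total counts Psmb6 (-0.12), Psmc6 (-0.21) and Psmd9 (-0.09) were not called. Psme4 held a match as well, and it was not called on TMM-scaled sizes (-0.19) and was called lower on total counts (-0.89). The part of the motif in these values was not tested. The hepatocyte marker sums given above lay nearer to WT livers in both triple knockouts than in DKO livers.

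The 2 members called lower in Nrf2 TKO livers were Psmd8 and Psmd10, in a comparison that shares the DKO libraries with those above. Psmd8 had 109, 131, 158 and 176 CPM in Nrf2 TKO livers, against 292, 289, 282 and 300 CPM in DKO livers. The groups were far apart, with a change of -1.02 ± 0.15 (edgeR adjusted p = 4.3e-06) and of -1.70 on total counts. Psmd10 had 13.4, 16.1, 16.1 and 14.4 CPM in Nrf2 TKO livers, against 29.6, 25.9, 30.2 and 25.1 CPM in DKO livers. Its change was -0.88 ± 0.12 (edgeR adjusted p = 2.6e-06) and -1.55 on total counts. In p62 TKO versus DKO livers Psmd8 differed by -0.28 ± 0.15 (edgeR adjusted p = 0.13) and Psmd10 by -0.26 ± 0.12 (adjusted p = 0.092), and both were called lower on total counts (-0.75 and -0.72). Psmd8 made up 11.4% to 13.1% of cap counts in p62 TKO, 5.93% to 8.88% in Nrf2 TKO, 7.78% to 12.6% in the Atg5 KO and 6.41% to 7.58% in the TSC1 KO livers. Its p62 TKO range lay between those of DKO and Nrf2 TKO livers without touching either. Psmd8 and Psmd10 were followed through all comparisons after their values were seen.

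Among the partners and regulators, Ubqln2, Zfand2a and Nfe2l1 were called lower in Nrf2 TKO livers on both scales. Ubqln2 had 15.2, 19.8, 20.1 and 20.3 CPM in Nrf2 TKO livers, all below the DKO values given above (-1.84 ± 0.17, edgeR adjusted p = 7.9e-09). Zfand2a had 11.4, 13.2, 14.9 and 17.1 CPM in Nrf2 TKO livers (-1.47 ± 0.16 against DKO, edgeR adjusted p = 9.6e-08). Nfe2l1 had 100, 115, 124 and 128 CPM in Nrf2 TKO livers, below every DKO library (-0.47 ± 0.09, edgeR adjusted p = 1.2e-04).

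**Figure D3:**
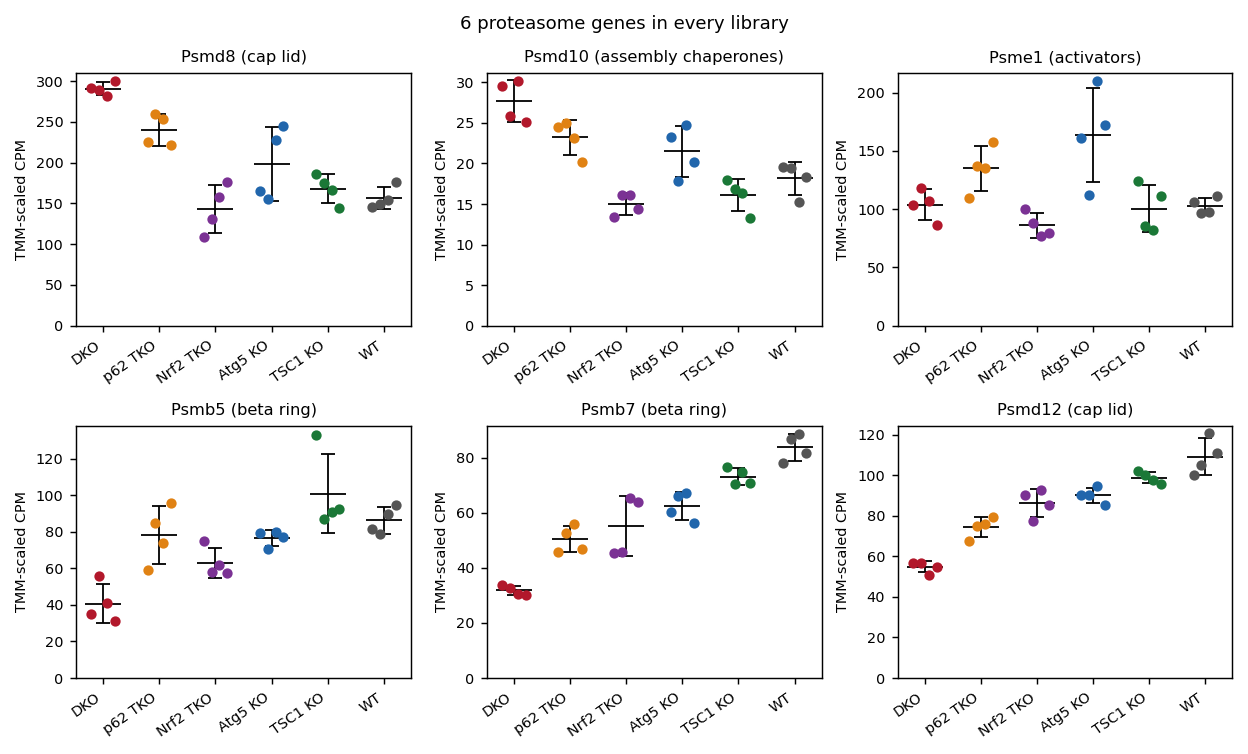
TMM-scaled CPM of 6 genes in each library (points) with the mean and SD of 4 libraries per genotype. Psmd8 and Psmd10 are highest in DKO and low in Nrf2 TKO livers, Psme1 is highest in 3 Atg5 KO libraries, and Psmb5, Psmb7 and Psmd12 are lowest in DKO livers.

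The direct comparison of p62 TKO with Nrf2 TKO livers, which share the Atg5 and Tsc1 deletions and had similar TMM factors (1.01 to 1.2 and 0.86 to 1.1), had 4 members called higher and 0 lower by edgeR. Of all genes 10.4% were called higher and 7.11% lower, the member median was -0.04, and DESeq2 gave the same 4 and 0 calls. At an unadjusted p under 0.05, 2 members were lower. On total counts 9 were higher and 0 lower by edgeR (0 lower at an unadjusted p under 0.05), against 18.8% and 3.46% of all genes. Psmd8 had 225, 259, 254 and 221 CPM in p62 TKO livers, against 109, 131, 158 and 176 CPM in Nrf2 TKO livers, without overlap (0.74 ± 0.15, edgeR adjusted p = 0.0014). Psmd10 had 24.5, 25, 23.1 and 20.2 CPM in p62 TKO livers, against 13.4, 16.1, 16.1 and 14.4 CPM in Nrf2 TKO livers, also without overlap (0.63 ± 0.12, edgeR adjusted p = 0.0013). Psme1 had 110, 137, 135 and 158 CPM in p62 TKO livers, against 100, 88.2, 77 and 79.2 CPM in Nrf2 TKO livers (0.65 ± 0.16, edgeR adjusted p = 0.0076). Psmd5 differed by 0.49 ± 0.13 (edgeR adjusted p = 0.0086), a call that was lost without Nrf2 TKO replicate 1 (0.41, adjusted p = 0.057). All 4 were also called on total counts. Ubqln2 (1.44 ± 0.17, edgeR adjusted p = 6.2e-06), Zfand2a (1.05 ± 0.16, adjusted p = 1.3e-04) and Nfe2l1 (0.45 ± 0.09, adjusted p = 0.0015) were higher in p62 TKO livers as well. Beside Psme1, 6 of 12 interferon-responsive genes and 6 of 8 macrophage markers were called higher, with macrophage sums of 510 to 827 CPM in p62 TKO and 187 to 291 CPM in Nrf2 TKO livers.

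**Figure D4:**
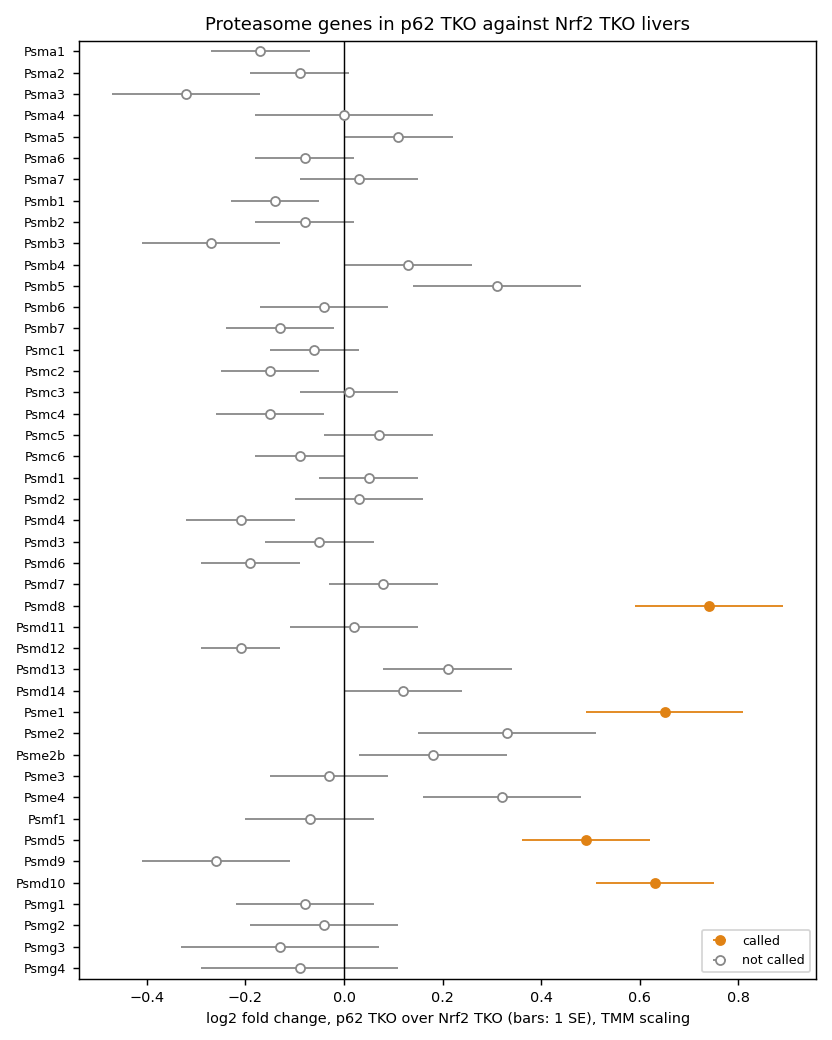
Log2 fold change in p62 TKO over Nrf2 TKO livers of 44 genes (Psma8 and Psmc3ip, with low counts, are not drawn), with bars of 1 SE and orange points for called genes. Psmd8, Psme1, Psmd10 and Psmd5 stand to the right at 0.49 to 0.74, and the other genes lie within 0.33 of 0.

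Against WT livers, p62 TKO livers had 23 members called lower and 3 higher (22.9% and 28.0% of all genes) and Nrf2 TKO livers 22 lower and 2 higher (17.1% and 22.4%) on TMM-scaled sizes. Both member medians were -0.27. Without p62 TKO replicate 1 the lower count in p62 TKO livers was 14, and the higher count in Nrf2 TKO livers was 0 without WT replicate 1, 2 or 3. On total counts p62 TKO livers had 21 higher and 0 lower by edgeR (1 lower at an unadjusted p under 0.05), against 54.1% and 6.23% of all genes, and Nrf2 TKO livers 5 each way, against 38.9% higher and 6.33% lower. The ATPase Psmc1 had 109, 128, 121 and 99.8 CPM in p62 TKO and 114, 110, 131 and 121 CPM in Nrf2 TKO livers, against 176, 178, 176 and 177 CPM in WT livers. It stood below WT in both, by -0.63 ± 0.10 in p62 TKO (edgeR adjusted p = 1.1e-05) and by -0.57 ± 0.10 in Nrf2 TKO livers (adjusted p = 7.0e-05). Psmd3 (-0.64 ± 0.11, edgeR adjusted p = 9.8e-05) and Psme4 (-0.88 ± 0.16, adjusted p = 2.0e-04) were lower in Nrf2 TKO livers on both scales. Psme4 had 65.9, 72.6, 132 and 125 CPM in Nrf2 TKO livers, against 192, 196, 179 and 162 CPM in WT livers. Replicates 1 and 2 stood well below replicates 3 and 4, and all 4 lay below every WT library. Without replicate 1 the difference was -0.73, and without replicate 3 it was -1.06, each still called. The split was not particular to Psme4. Psmb7 had 45.5, 45.7, 65.2 and 63.9 CPM in Nrf2 TKO livers and Psme3 50.7, 55.4, 85.7 and 78.8 CPM, and Psmd2 and Psmd13 split likewise. Other members did not, such as Psma2 with 115, 99.8, 97.1 and 99.2 CPM. Psmd8 remained above WT in p62 TKO livers (0.62 ± 0.15, edgeR adjusted p = 0.0013), as did Psmd10 (0.35 ± 0.12, adjusted p = 0.022). In Nrf2 TKO livers Psmd8 differed from WT by -0.12 ± 0.15 (edgeR adjusted p = 0.53) and Psmd10 by -0.28 ± 0.13 (adjusted p = 0.084), which was called lower without WT replicate 3 (-0.36, adjusted p = 0.036). The Psmd10 call in p62 TKO livers was lost without WT replicate 3 (0.24) or p62 TKO replicate 1 (0.32) or 2 (0.27).

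**Figure D5:**
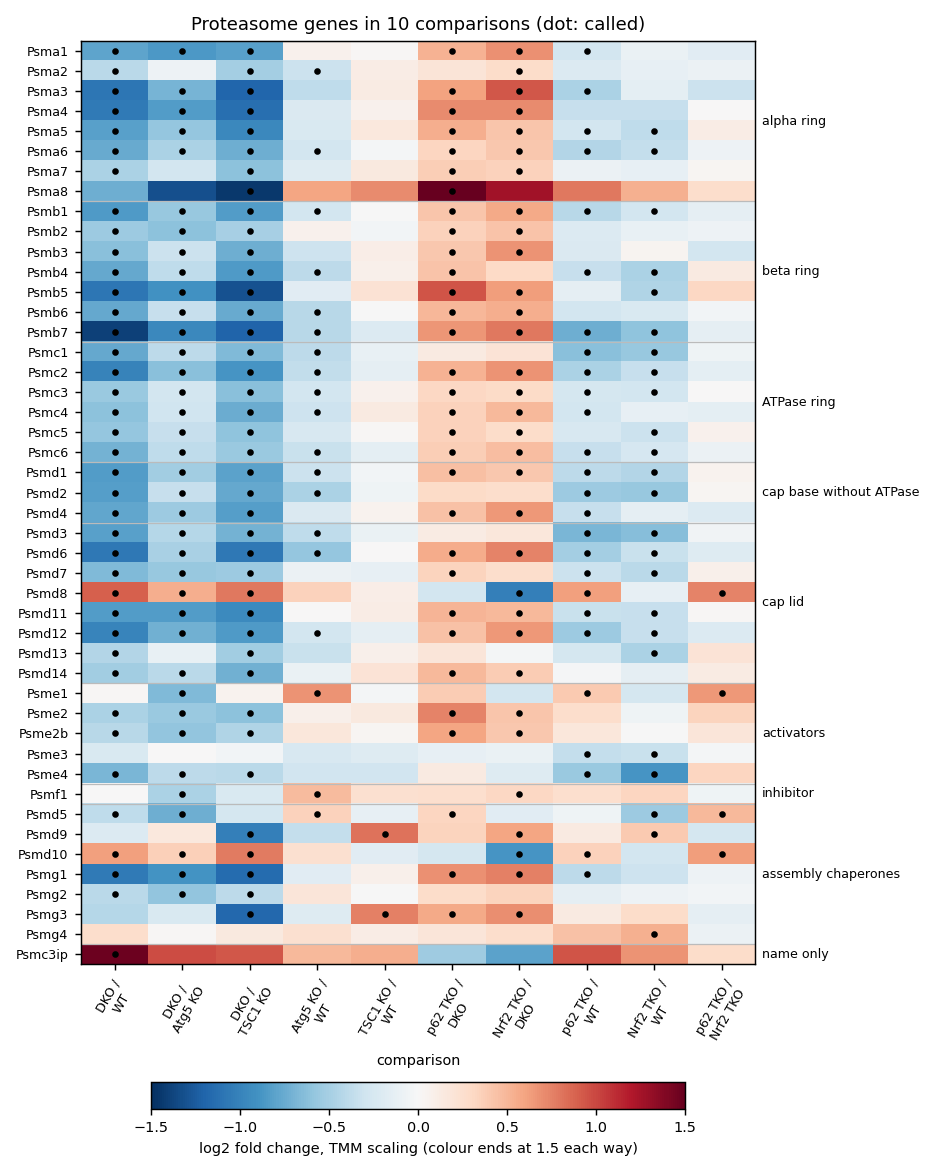
Log2 fold change (colour, TMM scaling) of the 46 tested genes (rows, by role) in 10 comparisons (columns, named as genotype over genotype), with dots for called genes. The 3 DKO columns on the left are mostly blue and the triple knockouts over DKO mostly red, and the rows of Psmd8 and Psmd10 have the opposite colour to most of their neighbours in these columns, though neither was called in p62 TKO over DKO.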

How the data were processed

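Poly(A) RNA of mouse liver, in 24 libraries (4 for each of 6 genotypes), was sequenced as single reads of 75 bp from a stranded kit, per the labels' protocols. Trimmomatic 0.36, HISAT2 2.1.0, HTSeq (no version) and the build GRCm38 are named in the submitters' processing notes. The authors deposited whole-number read counts per Ensembl gene, not normalized. Which gene annotation was counted, and whether by strand, is not given in these sources. If strand was ignored, reads from genes that overlap on opposite strands cannot be told apart.

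Symbols, exon lengths and overlaps came from GENCODE M21, which matched 32953 of 33019 gene rows, and promoters from RefSeq on GRCm38.p6. The members and lists were chosen with earlier results of these data known. Genes were filtered with filterByExpr, scaled by TMM and fitted with edgeR 4.0.16 (R 4.3.3, limma 3.58.1) in 1 robust quasi-likelihood model of 6 genotype means over all 24 libraries, with 18 residual degrees of freedom. The p-values were adjusted by Benjamini-Hochberg over 15851 genes and called under 0.05. CPM used TMM-scaled library sizes, and levels per length divide by the union of exons. The script was tested on simulated data. Intervals of shares are Wilson binomial intervals at 95% and cover counting error only.

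Alternatives were DESeq2 1.42.0, edgeR with DESeq2's size factors or with total counts alone, all genes kept whatever their counts, a fit of the compared groups alone, a replicate block, and leaving out each library. Libraries with the same replicate number were no more alike than others (median correlation -0.0125 against 0.00369), a check that cannot exclude shared handling. No 2 libraries of a group were alike within sampling noise, the lowest chi-square per degree of freedom being 8.69. In the main comparisons, up to 3 members per role with the smallest adjusted p were named with a test, along with any called against the direction of most; in the others up to 8 were. Tables were made with Python 3.11.15 and pandas 2.3.3, and figures with matplotlib 3.10.9.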

Additional observations from a re-analysis of the deposited data

Results flagged for a closer look

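Within groups of 4 libraries, 13 of 276 groups of CPM values held 1 library far from the other 3 by Dixon's criterion, which chance alone marks in about 1 in 20 groups. TSC1 KO replicate 1 was that library in 7 of them. It was highest for Psma2 (143 CPM), Psma3 (284 CPM), Psma7 (188 CPM), Psmb5 (133 CPM), Psmc2 (152 CPM) and Psmd3 (150 CPM), and lowest for Psmg4 (5.79 CPM). Nrf2 TKO replicate 1 was highest for Psma2 (115 CPM) and Psmb6 (165 CPM), and p62 TKO replicate 4 for the testis-type subunit Psma8 (3.19 CPM). WT replicate 4 was lowest for Psmd2 (247 CPM) and highest for Psme2 (94.1 CPM), and WT replicate 3 was lowest for Psmd13 (95.2 CPM).

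The effect of losing Tsc1 differed with and without Atg5, by edgeR's interaction test on TMM-scaled sizes, for 7 of the genes named with a test. Genes were named for a small adjusted p or for their direction, so this count is no result about the family. Of all genes, 19.3% had a negative call and 15.5% a positive one. The log2 interactions were -0.88 for Psma1, -0.96 for Psmd11, -0.78 for Psmb7, -1.14 for Psmb5, -0.98 for Psmg1, -0.71 for Psmf1 and 0.54 for Psmd10. On total counts Psmb7, Psmg1 and Psmf1 were not called, and the others were. On TMM-scaled sizes the Psmd10 call was lost without any of the 7 libraries named above.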

How the results depend on the processing

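DESeq2 kept all 22 counts of called members within 1.5 times and all 100 named genes on their side of the threshold. Total counts alone moved 19 counts. Higher and lower members were then 13 and 0 in Atg5 KO versus WT livers, 26 and 1 in DKO versus WT, 15 and 2 in DKO versus Atg5 KO, 19 and 4 in DKO versus TSC1 KO, 1 and 8 in p62 TKO versus DKO, 0 and 23 in Nrf2 TKO versus DKO, 21 and 0 in p62 TKO livers versus WT, 5 each way in Nrf2 TKO versus WT and 3 and 3 for the interaction, with 9 higher in p62 TKO versus Nrf2 TKO. By construction this drops the TMM factors. It left 53 named genes the same, made 8 stronger and 29 weaker, and reversed 10: Psma2 in Atg5 KO versus WT (0.05), Psma1 (0.20), Psmd1 (0.15) and Psme4 (0.30) in DKO versus WT, Psmd12 in DKO versus TSC1 KO (0.01), Psmd1 in p62 TKO versus DKO (-0.02), and Psmd12 (-0.02), Psmc2 (-0.01), Psmd4 (-0.02) and Psmb5 (-0.04) in Nrf2 TKO versus DKO. Without a filter on low counts, 7 members were lower in Atg5 KO versus WT, 19 higher in p62 TKO versus DKO, 13 lower in p62 TKO versus WT, with 0 higher in Nrf2 TKO versus WT, and the calls of Psma2 (-0.30) and Psmd5 (0.37) in Atg5 KO versus WT and of Psmd10 (0.37) in p62 TKO versus WT were lost. With only the groups compared, 6 were higher in p62 TKO livers versus WT, 0 higher and 11 lower in Nrf2 TKO versus WT and 0 positive for the interaction, and the calls of Psmd5 (0.38) and Psmb8 (0.75) in Atg5 KO versus WT and of Psmd10 in the interaction (0.47) were lost. DESeq2's size factors gave 1 higher in Nrf2 TKO versus WT. The cause of these moves was not tested. Same-numbered libraries correlated at -0.282 to 0.261 (median -0.0125), with 7 of 60 pairs over 0.1 and 5 of 24 libraries closest to their own number; the replicate block gave 1 higher in Nrf2 TKO versus WT, kept the other 21 counts within 1.5 times and lost no named call. Leaving out 1 library gave these ranges of higher and lower calls: 1 to 4 and 7 to 17 in Atg5 KO livers versus WT, 1 to 2 and 0 to 0 in TSC1 KO livers versus WT, 3 to 3 and 33 to 38 in DKO versus WT, 1 to 3 and 28 to 36 in DKO versus Atg5 KO, 2 to 2 and 36 to 40 in DKO versus TSC1 KO, 23 to 34 and 0 to 0 in p62 TKO versus DKO, 24 to 35 and 2 to 2 in Nrf2 TKO versus DKO, 1 to 5 and 14 to 26 in p62 TKO livers versus WT, 0 to 3 and 15 to 22 in Nrf2 TKO versus WT, 3 to 4 and 0 to 1 in p62 TKO versus Nrf2 TKO, and 0 to 2 and 22 to 33 for the interaction. Depth limits Psma8 and Psmc3ip, which have few counts per library, and Psmb11, with 0 to 2 counts per library, was not tested.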
